A study of Mus musculus and Rattus norvegicus with 14 samples.

Results

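The rat libraries of this series compare a three-dimensional (3D) co-culture of heart cells with the same cell types kept as flat (2D) cells. The gene table holds 33600 genes for 2 of the 14 samples of the series, and every gene was taken, in both directions. The 3D library is labelled as a co-culture of 3 rat primary cell types: cardiomyocytes, fibroblasts of the heart, and macrophages grown from bone marrow, and the design text calls it 3D-OGD-MF, an abbreviation that the labels do not expand. The title of the series places the 3D myocardial tissue under hypoxia. The 2D library is labelled with the same cell types, described as mixed at 1:1:1. Rat strain, age, culture time, medium and oxygen level are not given for either library. The 3D and 2D cultures differ in more than 1 respect, and the parts played by geometry, contact between cell types and oxygen cannot be told apart.

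Each group is 1 library, so nothing measures how far 2 cultures of the same kind would differ. The values compare these libraries, not the conditions, and no test across genes was made. The intervals given are exact 95% binomial intervals on the read ratio. They cover counting error only, since PCR reads without molecular identifiers are not independent molecules.

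Fibroblasts build and turn over the heart's collagen matrix, macrophages clear debris and release cytokines, and cardiomyocytes contract. Danger signals and cytokines release the transcription factor NF-kB from its inhibitors, and NF-kB then switches on chemokines, which draw in leukocytes, together with its own inhibitors. Low oxygen stabilises the HIF transcription factors, which raise glucose uptake, glycolysis and vessel growth factors.

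The deposited values were FPKM (fragments counted per kilobase of gene, relative to the depth of the library), and each came out as a whole number of reads. The sums were 11910160 reads in the 3D library and 13262387 in the 2D library. Mitochondrially encoded genes took 2.45% of the reads in the 3D library and 2.73% in the 2D library. The FPKM were scaled so that the median gene at 1 FPKM or more in both libraries had a ratio of 1. These are the scaled FPKM below. The 13405 genes at 1 FPKM or more in either library were compared as the log2 difference, 3D minus 2D, of scaled FPKM plus 1. That scale understates the differences of low genes, so the read ratio adjusted for depth is given beside it. Of the genes described below, Tnni3, Myh6, Myh7, Ryr2, Col3a1, Pdgfra, Fn1, Lox, Itga2, Itgb3, Fas, Ccl3, Cxcl10, Irf7, Hvcn1, Fcgr2b, Gdf6, Ednrb, Ptx3, Slamf7, Tpi1, Derl3, Atp5pb, LOC100911417, Ass1, Nr3c2 and both genes named Rpl7a overlap another gene of the table, and their reads and those of that gene cannot be told apart if strand was not used.

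The markers did not show an even mix of the 3 labelled cell types in either library. Fibroblast genes were high in both. Col1a1, a chain of type I collagen, stood at 1788 scaled FPKM in the 3D library and 2007 in the 2D library, and Thy1, a fibroblast surface protein, at 204 in 3D and 244 in 2D. All 14 fibroblast markers were compared, with a summed level of 3216 scaled FPKM in 3D and 3147 in 2D. Of 14 cardiomyocyte markers in the table, 5 reached 1 FPKM in either library, and their summed level was 42.9 in 3D and 43.9 in 2D. The defining ones were at or near 0. Myl2, the ventricular myosin light chain, had 0 reads in both libraries, Tnni3, cardiac troponin I, had 2 reads in 3D and 6 in 2D, and Ryr2, the calcium release channel, had 2 in 3D and 4 in 2D. Tnnc1, a troponin that slow skeletal muscle also makes, was detected at 23.6 scaled FPKM in 3D and 25.2 in 2D. The cardiac factor Nkx2-5 was at 6.83 in 3D and 6.59 in 2D.

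Macrophage markers were low as well. Of 17 in the table, 9 reached 1 FPKM in either library, and the summed level was 55.9 scaled FPKM in 3D and 42.2 in 2D. Of the 9, 7 were above 0 on the log2 scale and 2 below, with a median of 0.43. Ptprc (CD45), carried by leukocytes, had 22 reads in 3D and 31 in 2D. Csf1r, the receptor macrophages need to survive, had 2.43 scaled FPKM in 3D and 3.84 in 2D, and Spi1, the factor that sets their identity, had 3.68 in 3D and 1.19 in 2D. Spi1 was the only macrophage marker past 2-fold. Its read ratio was 3.08 (95% interval 2.03 to 4.79). Arg1, an arginase of alternatively activated macrophages, had 10 reads in 3D and 7 in 2D. None of the smooth muscle, endothelial or epicardial markers compared was past 2-fold. Smooth muscle and pericyte markers, which include the myofibroblast gene Acta2, summed to 1211 scaled FPKM in 3D and 1304 in 2D. Epicardial markers summed to 202 in 3D and 221 in 2D, and endothelial markers to 25.3 in 3D and 24.4 in 2D. In a bulk library, fewer cells of a type and less RNA per cell cannot be told apart.

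**Figure D1:**
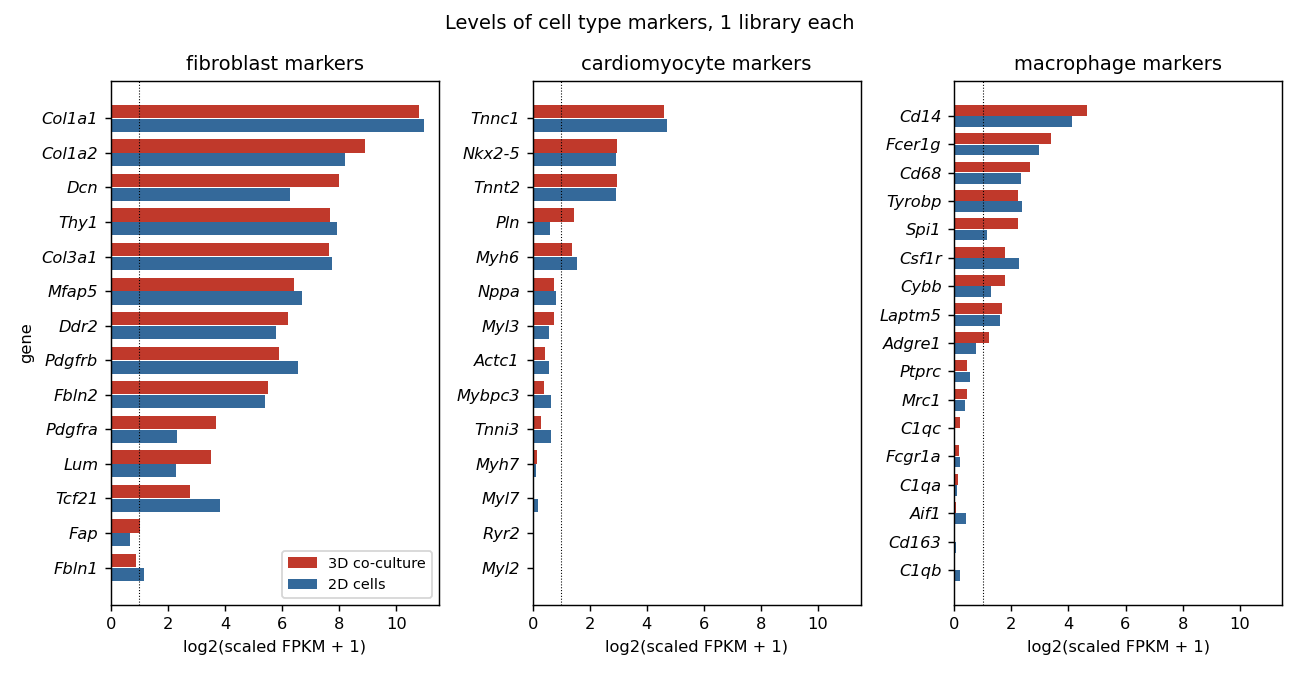
Levels of the marker genes of the 3 labelled cell types as log2(scaled FPKM + 1), 1 library each, with a bar for the 3D co-culture above a bar for the 2D cells; the dotted line marks 1 scaled FPKM. Fibroblast markers such as Col1a1 (1788 in 3D and 2007 in 2D) were high in both libraries, and most cardiomyocyte and macrophage markers lay below or near the line.

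Most genes had like levels in both libraries, and the genes far apart were mostly higher in 3D. Of the genes compared, 92.5% lay inside 2-fold, and the median difference was 0.00. At least 2-fold higher in 3D were 674 genes, 5.03% of those compared, and at least 2-fold lower were 327 genes, 2.44%. At 4-fold the numbers were 124 higher (0.925%) and 32 lower (0.239%). Of the 2-fold differences, the interval of the read ratio excluded 1 for 508 of the higher genes and 169 of the lower genes. Short noncoding RNA genes, with a median of 6 reads over both libraries together, made up 167 of the higher and 148 of the lower genes. Only 642 such genes were compared, so a far larger share of them passed 2-fold, in both directions, than of all genes. Protein-coding genes, with a median of 838 reads, made up 406 of the higher (3.49% of 11631 compared) and 120 of the lower genes (1.03%).

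**Figure D2:**
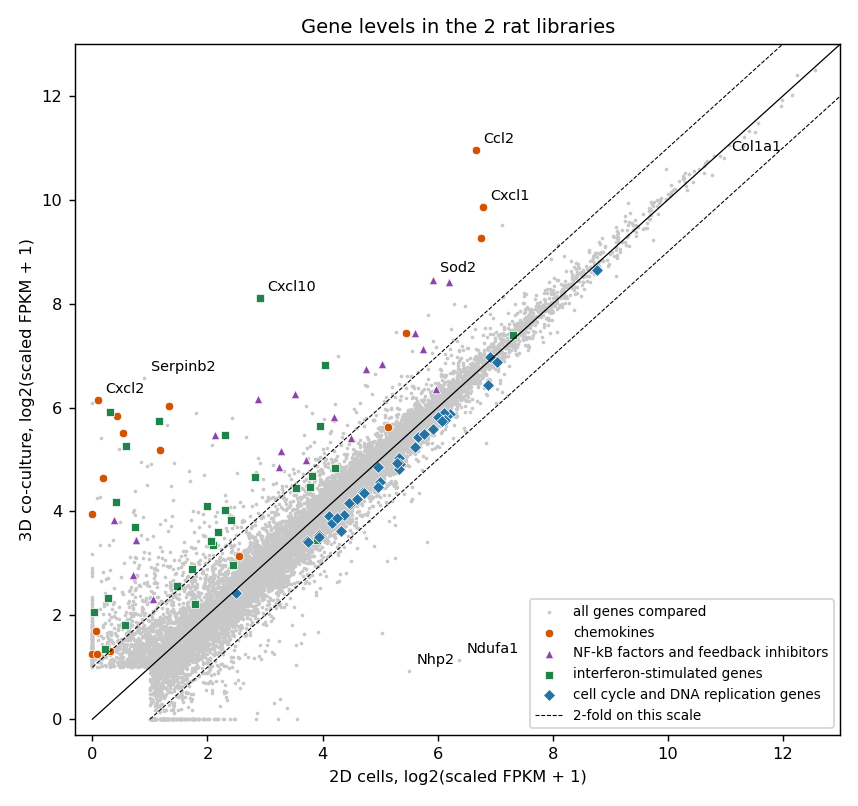
Each gene's level in the 3D co-culture (vertical axis) against the 2D cells (horizontal axis), both as log2(scaled FPKM + 1), with 4 gene lists coloured and dashed lines at 2-fold on this scale. Of the 18 compared chemokine genes 16 lie above the upper line (Pf4 and Cxcl12 do not), up to Ccl2 at 1977 scaled FPKM in 3D and 100.3 in 2D, while the cell cycle genes lie close to the diagonal.

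Chemokine genes were higher in the 3D library. Of 29 in the table, 18 were compared, 16 were at least 2-fold higher against 5.03% of all genes, none was lower, and the median log2 difference was 3.51. The 11 others stayed under 1 FPKM in both libraries. A member can be compared through the library where it is high alone, so this count, like those of the lists that follow, describes the list and supports nothing further. The shares over all genes to set beside each of those counts are 5.03% higher and 2.44% lower, also where they are not repeated. Ccl2, which recruits monocytes, on chromosome 10 (69412017 to 69413870) had 1977 scaled FPKM in 3D and 100.3 in 2D, a read ratio of 19.7 (18.6 to 20.9). That level placed Ccl2 among the 20 genes with the highest levels of the 3D library, of which 18 were among the 20 highest of the 2D library too. The other one outside that 2D set was Thbs1, a matricellular protein with a read ratio of 1.54. Ccl7, another monocyte attractant, had 618 in 3D and 107 in 2D.

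The neutrophil attractants were higher too. Cxcl1 had 924 scaled FPKM in 3D and 110.0 in 2D, a ratio of 8.4 (7.94 to 8.89). Cxcl2 had 867 reads in 3D and 1 in 2D, so its ratio of 1007 has a wide interval (180.2 to 39813). Cxcl3 had 44.7 scaled FPKM in 3D and 0.453 in 2D. Cxcl6 had 275 reads in 3D and none in 2D, 106-fold higher against a floor of 3 reads. These 4 genes lie together on chromosome 14, between 18731378 and 18862407 of Rnor_6.0, the build named in the submitters' processing notes, and the fifth compared protein-coding gene in that span, the platelet chemokine Pf4, was inside 2-fold (7.82 in 3D and 4.88 in 2D).

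Attractants of T cells and macrophages were higher in 3D as well. Cxcl10, an interferon-induced attractant of T cells, had 275 scaled FPKM in 3D and 6.51 in 2D, a ratio of 42.2 (34.6 to 52.1). Cx3cl1, a membrane-bound chemokine, had 64.7 in 3D and 1.51 in 2D. Ccl3, Ccl4 and Ccl5, which share receptors on T cells and macrophages, form a second group on chromosome 10 (70739800 to 70886355) with Ccl6 and Ccl9, and all 5 compared genes of that span were at least 2-fold higher. Ccl4 had 56.1 scaled FPKM in 3D and 0.351 in 2D, and Ccl5 had 152 reads in 3D and 1 in 2D. The gene that overlaps Ccl3 is antisense to it, and whether the counting used strand is not given in the sources used here. Cxcl12, made by stromal cells without stimulation, was inside 2-fold (48.2 in 3D and 34.3 in 2D).

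Part of the cytokine genes were higher in 3D. Of 26 cytokine and receptor genes compared (37 in the table), 12 were at least 2-fold higher against 5.03% of all genes, 14 were inside 2-fold and none was lower, with a median of 0.82. The 11 others stayed under 1 FPKM in both libraries. Of the 12 higher genes, 9 encode cytokines and 3 encode receptors (Osmr, Il1rl1 and Csf2rb), and some, such as Csf2 and Il1a, passed the 1 FPKM filter through the 3D library alone. Csf2 (GM-CSF), a growth factor of myeloid cells, had the highest log2 difference of all named protein-coding genes at 10 or more scaled FPKM. It lies on chromosome 10 (39602089 to 39604070) and had 343 reads in 3D (66.7 scaled FPKM) and 0 in 2D. Against a floor of 3 reads Csf2 was 132-fold higher, and the interval of its read ratio began at 107. Il1b, the secreted interleukin-1, had 35.7 in 3D and 0.37 in 2D (582 reads in 3D and 7 in 2D), a ratio of 96.6 (46.6 to 241). Il1a had 269 reads in 3D and 1 in 2D.

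Il6, the main inducer of acute-phase proteins, had 12.9 scaled FPKM in 3D and 2.83 in 2D, a ratio of 4.56 (3.2 to 6.62). Lif, of the same family, had 64.7 in 3D and 12.1 in 2D. Csf1, the macrophage growth factor, had 247 in 3D and 88.4 in 2D (2.79-fold, 2.7 to 2.89), and Csf3 (G-CSF) had 7.76 in 3D and 0.571 in 2D. Tnf had 15 reads in 3D and 0 in 2D and did not reach 1 FPKM. Il10, an anti-inflammatory cytokine, had 14 reads in 3D and 0 in 2D.

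**Figure D3:**
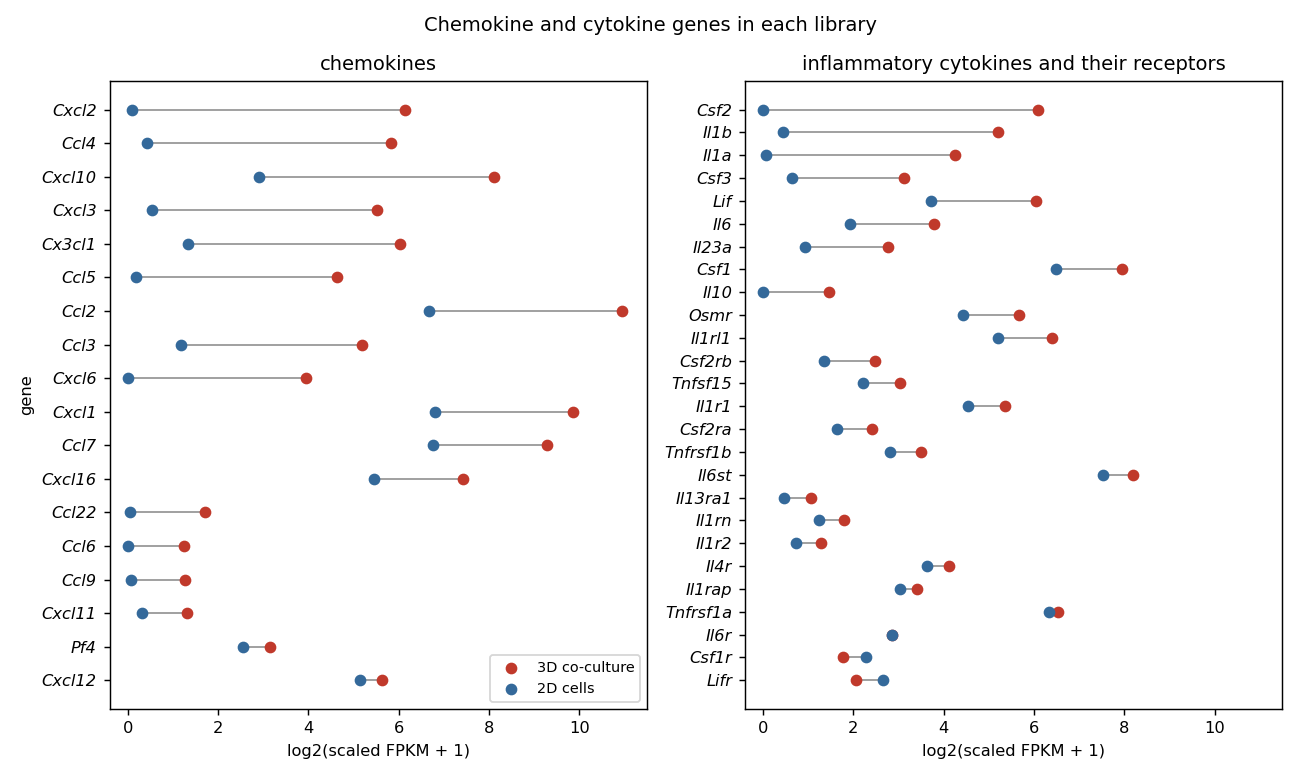
Levels of every compared chemokine gene (left) and cytokine or cytokine receptor gene (right) as log2(scaled FPKM + 1), red for the 3D co-culture and blue for the 2D cells, 1 library each, ordered by the difference. All 18 chemokine genes have the 3D value to the right of the 2D value; among the cytokine genes, Il6r, Csf1r and Lifr do not.

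Among 43 ligand and receptor pairs with both genes in the table, 15 of 34 compared ligands were at least 2-fold higher in 3D, against 5.03% of all genes, and 1, Tgfb3, was lower, against 2.44% of all genes. Of 32 compared receptors, 4 were higher, against 5.03% of all genes, and 0 lower, against 2.44%. In none of these pairs were both genes at least 2-fold higher. Ereg and its receptor Egfr, which were not on the pair list, both were. In 6 pairs the ligand was higher and the receptor under 1 FPKM in both libraries. Cx3cr1, the receptor of Cx3cl1, had 0 reads in both. Csf1r was 2.43 in 3D and 3.84 in 2D beside its higher ligand Csf1. The higher receptors of the list were Osmr, the oncostatin M receptor (49.7 in 3D and 20.6 in 2D), Il1rl1, the interleukin-33 receptor (83.6 in 3D and 36 in 2D), Pdgfra and Egfr.

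A list of NF-kB subunits, feedback inhibitors and known targets was higher in 3D nearly throughout. Of 20 genes compared, 18 were at least 2-fold higher against 5.03% of all genes, Rela and the inhibitor Nfkbib were inside 2-fold and none was lower, with a median log2 difference of 1.85. The subunit Nfkb1 had 106 scaled FPKM in 3D and 26.1 in 2D, a ratio of 4.05 (3.81 to 4.31), and Nfkb2, Relb and Rel were also past 2-fold. Rela, the subunit present in resting cells, was inside 2-fold (81 in 3D and 61.9 in 2D). Of the inhibitors, Nfkbia (I-kappa-B alpha) had 171 in 3D and 47.6 in 2D, and Tnfaip3 (A20), a deubiquitinase that ends the signal, had 76 in 3D and 10.4 in 2D.

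NF-kB targets on the same list had large differences at high levels. Sod2, the mitochondrial superoxide dismutase, had 352 scaled FPKM in 3D and 59.6 in 2D (5.92-fold, 5.61 to 6.24). Icam1, which binds leukocyte integrins, had 343 in 3D and 72.6 in 2D, and Vcam1 had 9.91 in 3D and 0.70 in 2D. Ptgs2 (COX-2), the inducible first enzyme of prostaglandin synthesis, had 70.7 in 3D and 6.37 in 2D, and Ptges, the terminal prostaglandin E synthase, had 13.2 in 3D and 0.294 in 2D. The constitutive Ptgs1 was inside 2-fold (4.34 in 3D and 6.14 in 2D), and 3 of 13 prostaglandin genes were higher, against 5.03% of all genes.

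Other inflammatory genes among the 20 highest differences were secreted proteins and a surface receptor. Serpinb2 (plasminogen activator inhibitor 2) had 93.7 scaled FPKM in 3D and 0.865 in 2D, a ratio of 108 (72.1 to 171). Tnfaip6, which binds hyaluronan, had 49.4 in 3D and 1.46 in 2D, and Ptx3, a soluble pattern recognition protein, had 58.2 in 3D and 2.49 in 2D. Slamf7, a leukocyte surface receptor, had 322 reads in 3D and 2 in 2D.

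Interferon-stimulated genes were mostly higher in 3D. Of 30 compared, 22 were at least 2-fold higher against 5.03% of all genes and none was 2-fold lower against 2.44%, with a median of 1.43. Gbp5, a guanylate-binding protein of host defence, had 59.6 scaled FPKM in 3D and 0.238 in 2D (251-fold, 136 to 524). Gbp5, Gbp7 and Gbp2 lie on chromosome 2 (248178389 to 248293784), and the fourth compared gene there, Gbp4, was also past 2-fold (2.51 in 3D and 0.478 in 2D). Gbp7 and Gbp4 carry the same Swiss-Prot entry in the table's annotation, so their separate values are uncertain.

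The antiviral genes Rsad2 (52.3 scaled FPKM in 3D and 1.23 in 2D), Ifit3 (37.1 in 3D and 0.505 in 2D) and Oasl (43.5 in 3D and 3.95 in 2D) were also higher. Mx1 had 123 reads in 3D and 1 in 2D. Of the signalling genes, Irf1 had 49.1 in 3D and 14.4 in 2D and Irf7 had 13.3 in 3D and 4.3 in 2D. Stat2 and Irf9 were inside 2-fold (log2 differences of 0.87 and 0.90). The immunoproteasome subunits Psmb8 and Psmb9 were past 2-fold at low levels (4.94 and 6.43 scaled FPKM in 3D, 1.79 and 2.33 in 2D).

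Markers of other leukocytes were measured at low levels, with some members higher in 3D. Summed levels of the neutrophil and mast cell list were 14.1 scaled FPKM in 3D and 10.9 in 2D, and those of the T, B and NK cell list were 6.82 in 3D and 7.04 in 2D. The dendritic cell list summed to 18.6 in 3D and 12.7 in 2D, and 1 of its 3 compared genes, Batf3, was higher (9.24 in 3D and 3.52 in 2D). The osteoclast list summed to 33.6 in 3D and 14.9 in 2D, and all 3 of its compared genes were above 0, with Mmp9 past 2-fold. The part of these markers in the other differences was not tested. Of 14 antigen presentation genes of MHC class II, 3 were compared, and Cd40 was the one past 2-fold (4.04 in 3D and 0.911 in 2D). Fcgr2b, an inhibitory antibody receptor of myeloid and B cells, had 3.18 in 3D and 0.499 in 2D. The macrophage list summed to 55.9 in 3D and 42.2 in 2D, and its part in the inflammatory differences was not tested.

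Targets of the low-oxygen factors leaned higher in 3D, and a minority were past 2-fold. Of 42 HIF targets compared (47 in the table), 9 were at least 2-fold higher in 3D against 5.03% of all genes, none was 2-fold lower, and 33 were inside 2-fold. Of the 42, 38 were above 0 and 4 below, against 49.5% of all genes below 0. Under the other scalings 34 to 37 were above 0. The median was 0.35. Egln3, an oxygen sensor that HIF itself induces (chromosome 6, 75050329 to 75075795), had 12.8 scaled FPKM in 3D and 0.393 in 2D (32.6-fold, 19.5 to 58.8). Angptl4, an inhibitor of lipoprotein lipase, had 38 in 3D and 3.21 in 2D. The glucose transporters Slc2a1 (43.3 in 3D and 11.8 in 2D) and Slc2a3 (7.64 in 3D and 0.697 in 2D) and the lactate exporter Slc16a3 (2.44 in 3D and 0.516 in 2D) were higher, and Vegfa, the main vessel growth factor, had 96.6 in 3D and 43.4 in 2D (2.23-fold, 2.11 to 2.35).

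Other classical targets had ratios close to 1 at high depth. Ldha, which makes lactate, had a ratio of 1.07 (1.05 to 1.1), and the glycolytic kinase Pgk1 had 1.16 (1.13 to 1.19). Bnip3, a mitophagy receptor, had 55.7 scaled FPKM in 3D and 45 in 2D, and Car9, a carbonic anhydrase widely used as a mark of hypoxic cells, had 15.6 in 3D and 11.9 in 2D. Among 24 glycolysis genes, 4 were higher, against 5.03% of all genes. Of these, 3 were the transporters above and the fourth was Eno2, the neuronal enolase (8.99 in 3D and 1.25 in 2D). Another gene carries the Swiss-Prot entry of Eno2, and the summed reads of both had a ratio of 1.56 (1.33 to 1.84), while for Slc2a3, with 2 such genes, the sum had 7.5 (4.76 to 12.3). Summing the genes of the entry left Ldha at 1.07 and Pgk1 at 1.16. The gene named Tpi1 had 6.77 in 3D and 13.6 in 2D, but 3 other genes carry its Swiss-Prot entry and the summed reads of all had a ratio of 2.07 (1.9 to 2.26), the opposite direction. Hif1a itself, mainly controlled at the protein level, was inside 2-fold (95 in 3D and 69.2 in 2D), and Epas1 (HIF-2 alpha) had 22.3 in 3D and 8.14 in 2D.

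**Figure D4:**
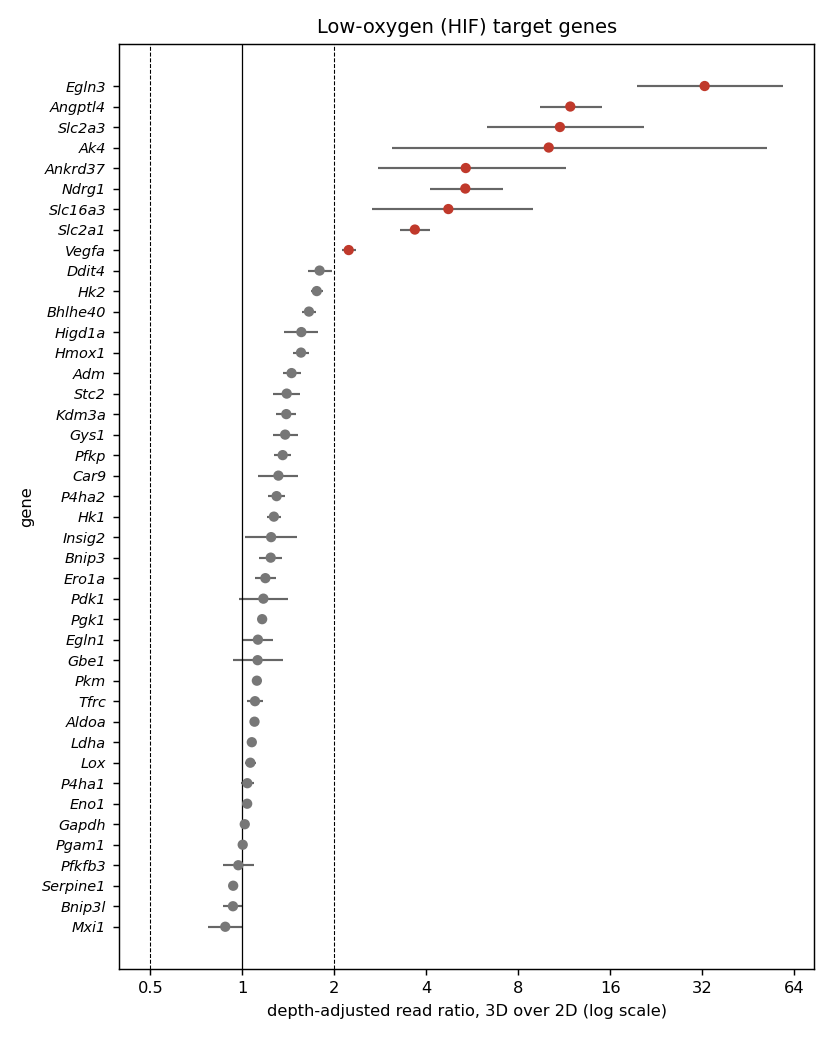
Depth-adjusted read ratio, 3D over 2D, of the 42 compared HIF target genes on a log axis, with exact 95% binomial intervals (counting error only), 1 library each; red points are at least 2-fold higher on the log2(scaled FPKM + 1) scale and dashed lines mark ratios of 0.5 and 2. The 9 red genes run from Egln3 (32.6) down to Vegfa (2.23), and the glycolytic enzymes Ldha (1.07) and Pgk1 (1.16) lie close to 1.

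Collagen genes did not separate the libraries. None of 20 compared was past 2-fold, and their median was 0.04, which was of either sign depending on the scaling. Col1a1 had a read ratio of 0.891 (0.884 to 0.898) and Col3a1 of 0.936 (0.913 to 0.96), both below 1, while Col1a2, the partner chain of Col1a1, had 1.64 (1.61 to 1.67). Acta2, the actin that marks myofibroblasts, had 795 scaled FPKM in 3D and 822 in 2D. Fn1, fibronectin, had 619 in 3D and 533 in 2D. Postn, a matrix protein of activated fibroblasts, had 279 in 3D and 140.2 in 2D, just inside 2-fold on the log2 scale (0.99).

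Other matrix genes were higher in part. Of 30 non-collagen matrix genes, 5 were at least 2-fold higher, against 5.03% of all genes, and none lower. Tnc, tenascin C, had 66.4 scaled FPKM in 3D and 17.6 in 2D (3.78-fold, 3.58 to 4.0). The collagen-binding proteoglycans Dcn (254 in 3D and 76.7 in 2D), Lum (10.3 in 3D and 3.88 in 2D) and Prelp (69 in 3D and 32.5 in 2D) and the hyaluronan synthase Has1 (7.69 in 3D and 0.669 in 2D) were the others. Mgp, an inhibitor of calcification that is not on the list, had 734 in 3D and 138 in 2D and was chosen after its values were seen. Of the 14 fibroblast markers, 10 were inside 2-fold, and 7 of the 14 were above 0 and 7 below. The 3 at least 2-fold higher, against 5.03% of all genes, were Pdgfra, Dcn and Lum. The 1 that was lower, against 2.44% of all genes, was the fibroblast factor Tcf21 (5.82 in 3D and 13.1 in 2D, 2.25-fold, 1.74 to 2.94).

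Among 23 matrix proteases and inhibitors, 6 were higher, against 5.03% of all genes, and 1 was lower, against 2.44%. The metalloproteinases Mmp9 (10.48 scaled FPKM in 3D and 1.08 in 2D), Mmp12 (5.7 in 3D and 0.412 in 2D), Mmp10 (5.14 in 3D and 0.867 in 2D), Mmp3 (3.11 in 3D and 0.605 in 2D) and Mmp13 (2.8 in 3D and 0.568 in 2D) were higher at low levels. The abundant gelatinase Mmp2 was inside 2-fold at 464 in 3D and 249.6 in 2D. Adamts5, an aggrecanase, was lower at 4.75 in 3D and 11.7 in 2D (2.46-fold, 2.06 to 2.93).

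Most integrin and collagen-modifying genes were inside 2-fold. Of 18 integrin genes, 2 were higher, against 5.03% of all genes, and none lower. The 2 were the collagen receptor chain Itga2 (5.38 scaled FPKM in 3D and 0.651 in 2D) and Itgb3 (4.66 in 3D and 1.57 in 2D). Itgb1, the shared beta chain, had 610.0 in 3D and 562 in 2D. Of 22 collagen-modifying genes the transglutaminase Tgm2 was the one past 2-fold (20.5 in 3D and 8.8 in 2D), against 5.03% of all genes. Lox, lysyl oxidase, had 81 in 3D and 76.3 in 2D, and Serpinh1, the collagen chaperone, had 699 in 3D and 793 in 2D.

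The TGF-beta genes gave no common direction. Of 27, 1 was higher, against 5.03% of all genes, and 1 lower, against 2.44%. Tgfb1, the main fibrogenic ligand, had 120.0 scaled FPKM in 3D and 90.6 in 2D, inside 2-fold. Tgfb3 had 19.4 in 3D and 49.98 in 2D, 2.57-fold lower (2.34 to 2.83), and Inhba, an activin subunit, had 96.4 in 3D and 45.2 in 2D. Targets of YAP, a factor that responds to stretch and stiff surfaces, had a median of -0.32, with 12 of 16 below 0 against 49.5% of all genes. Ccn5 was the one past 2-fold (1.28 in 3D and 5.48 in 2D), and Ankrd1 was at 74.1 in 3D and 147 in 2D.

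Growth factor ligands included genes of both directions. Of 36 compared, 10 were higher, against 5.03% of all genes, and 2 lower, against 2.44%. Bmp2 had 13.9 scaled FPKM in 3D and 0.832 in 2D (16.7-fold, 11.9 to 24.1), while Bmp4 had 3.49 in 3D and 8.65 in 2D and Gdf6 had 3.45 in 3D and 10.3 in 2D. Ereg, a ligand of the EGF receptor, had 14.1 in 3D and 4.4 in 2D, and its receptor Egfr had 7.96 in 3D and 3.09 in 2D. Gdf15, a stress-induced hormone, had 44.7 in 3D and 16.6 in 2D. Of 27 receptors, 3 were higher (Pdgfra, Egfr and the endothelin receptor Ednrb), against 5.03% of all genes, and none lower.

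Few genes of the contractile cell were past 2-fold. Of 10 sarcomere and Z-disc genes compared, none was 2-fold higher and Synpo2l was lower (0.613 scaled FPKM in 3D and 2.87 in 2D). The summed level of the list was 496 in 3D and 593 in 2D, and 7 of the compared genes were below 0, against 49.5% of all genes. No gene of calcium cycling and ion channels was past 2-fold among 13, of which 9 were below 0, nor was any of 11 intercalated disc genes, of which 8 were below 0. Of 7 natriuretic and stretch-response genes 5 were below 0, with a median of -0.32 and a summed level of 116 in 3D and 197 in 2D. None of them was past 2-fold, though 2 were lower under each of 2 other scalings. The adult myosin Myh6 had 111 reads in 3D and 159 in 2D, its fetal counterpart Myh7 had 8 in 3D and 8 in 2D, and the natriuretic peptide genes Nppa (7 in 3D and 9 in 2D) and Nppb (28 in 3D and 15 in 2D) had few. The read ratio was 1.16 (0.38 to 3.55) for Myh7 and 0.903 (0.286 to 2.73) for Nppa, so a 2-fold difference was not detectable at this depth.

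Cell cycle genes were a little lower in 3D almost without exception. Of 37 compared, 36 were below 0, against 49.5% of all genes, and none was past 2-fold, with a median of -0.35 and a range of -0.68 to 0.05. Mki67, the proliferation marker, had 58 scaled FPKM in 3D and 73.1 in 2D, a ratio of 0.794 (0.769 to 0.819). Ribosomal protein genes leaned the other way, with 32 of 34 above 0 and 2 below, against 49.5% of all genes below 0, and a median of 0.14. The mitochondrially encoded genes had a median of -0.12. The tricarboxylic acid cycle and fatty acid genes were all inside 2-fold, 20 and 24 genes.

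Early and stress-response genes differed in single members. Of 23 immediate early genes, 3 were higher, Atf3, Ier3 and Junb, against 5.03% of all genes. Above 0 were 18, and 5 were below 0, against 49.5% of all genes, with a median of 0.36. Fos, the best known of them, had 2.75 scaled FPKM in 3D and 2.65 in 2D. Of 17 p53 targets, 2 were higher, against 5.03% of all genes, the death receptor Fas (31.2 in 3D and 14 in 2D) and Btg2. Cdkn1a, the cell cycle inhibitor p21, had 104 in 3D and 108 in 2D. Among 16 heat shock genes 2 were higher, against 5.03% of all genes. They were the small chaperone Hspb8 (16.2 in 3D and 5.12 in 2D) and Hsp90aa1 (28.7 in 3D and 7.82 in 2D). Hsp90aa1 shares its entry with 5 genes. The summed reads of all gave a ratio of 2.6 (2.33 to 2.9).

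Of the signalling lists, 2 of 9 Wnt genes were higher, against 5.03% of all genes. They were Wnt5a, a ligand of the noncanonical branch (2.39 scaled FPKM in 3D and 0.296 in 2D), and the secreted inhibitor Sfrp2 (6.92 in 3D and 2.4 in 2D). None of 7 Notch genes was past 2-fold. Genes that mark lipid-handling macrophages in scarred tissue, several of which fibroblasts also make, had 2 of 22 higher, against 5.03% of all genes. They were Mmp12 and Hvcn1, while Gpnmb had 318 in 3D and 333 in 2D. Spp1, osteopontin, had 256 in 3D and 297 in 2D.

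The unfolded protein chaperone Hspa5 had 349 scaled FPKM in 3D and 270.5 in 2D. Of its list, 2 of 25 genes were higher, against 5.03% of all genes. They were Ern1 and, on 9 reads in 3D and 0 in 2D, Derl3. Atf3, an early stress factor, had 7.4 in 3D and 1.85 in 2D. Of 19 NRF2 antioxidant targets none was past 2-fold. The metallothionein gene Mt2A had 174 in 3D and 37.9 in 2D.

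**Figure D5:**
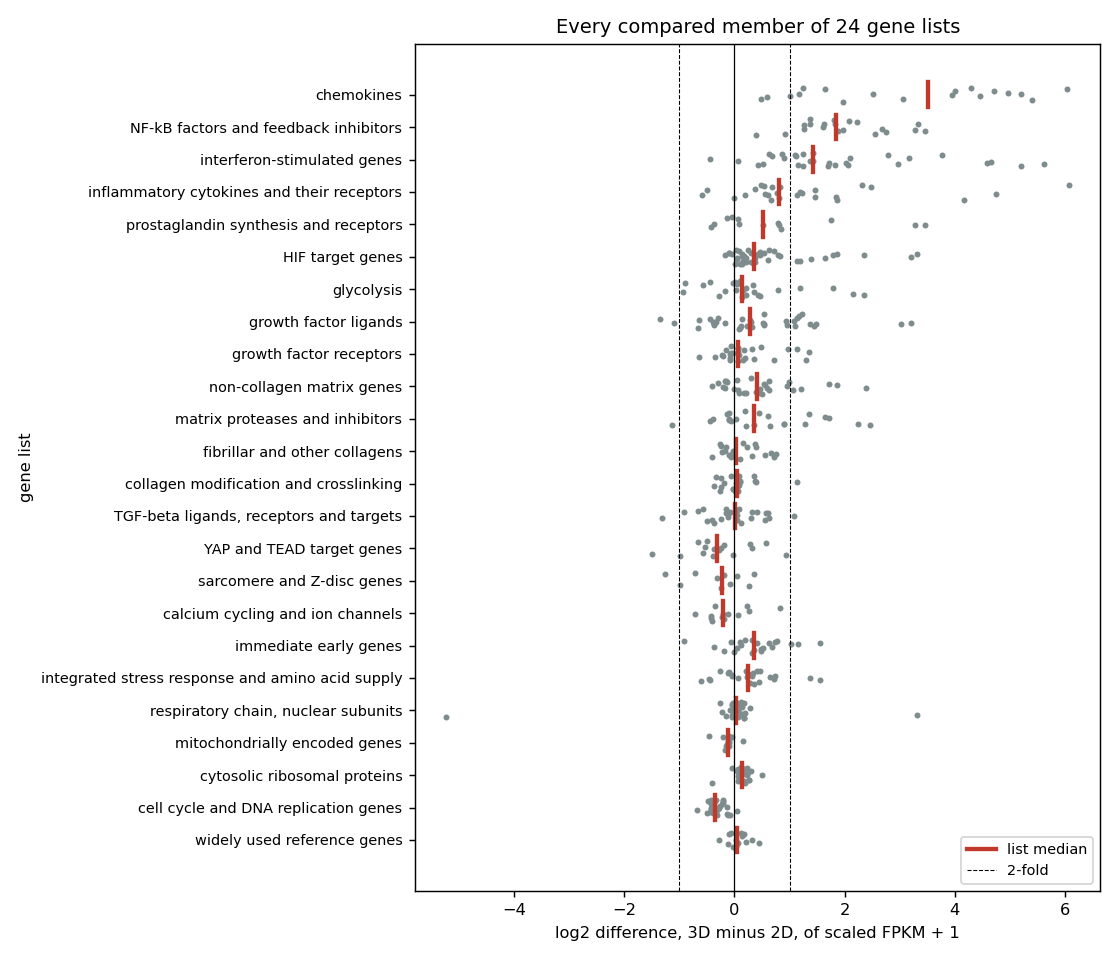
Log2 difference, 3D minus 2D, of scaled FPKM plus 1 for every compared member (grey points) of 24 gene lists, with the list median in red and dashed lines at 2-fold. Medians run from 3.51 for chemokines to -0.35 for cell cycle genes, and the outlying points of the respiratory chain list are Ndufa1 and Atp5pb.

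Of the 20 lowest log2 differences among named protein-coding genes at 10 or more scaled FPKM, 10 had placeholder names and 10 shared their Swiss-Prot entry with another gene; of the 20 highest, 1 had a placeholder name and 4 shared an entry. Of all 11631 compared protein-coding genes, 868 had placeholder names and 1890 shared an entry. So did 65 and 113 of the 406 that were 2-fold higher, and 47 and 52 of the 120 that were 2-fold lower. The lowest was Ndufa1, a subunit of respiratory complex I on chromosome X (124513269 to 124516705), with 3 reads in 3D and 237 in 2D, and next came Nhp2, a protein of small nucleolar ribonucleoproteins, with 7 in 3D and 400 in 2D. Each has another gene with its entry, so these values are uncertain. For Ndufa1 the other gene had 7 reads in 3D and 7 in 2D, and the summed reads gave a ratio of 0.0476 (0.0225 to 0.089). For Nhp2 the other gene had 0 reads in both libraries. Its summed ratio, 0.0203 (0.00812 to 0.0423), is therefore that of Nhp2 alone and checks nothing.

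Of the lowest genes with no shared entry, Pik3ip1, an inhibitor of the kinase PI3K (chromosome 14, 83560541 to 83572473), had 5.34 scaled FPKM in 3D and 18.5 in 2D, 3.47-fold lower (2.88 to 4.21). Cavin2, a coat protein of caveolae, had 6.08 in 3D and 20.1 in 2D. Klhl40, a muscle protein that stabilises thin filaments, had 4.43 in 3D and 13.8 in 2D, and the helix-loop-helix factor Atoh8 had 4.77 in 3D and 14.6 in 2D. Medag, named for its link to adipogenesis, had 13.9 in 3D and 37 in 2D. Outside the rule for named genes and chosen after its values were seen, Cyp1a1, the classical target of the aryl hydrocarbon receptor, had 1.24 in 3D and 6.61 in 2D (5.35-fold lower, 3.78 to 7.75).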

How the data were processed

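The 3D and 2D rat libraries were poly(A)-selected RNA, per the labels' protocols, which describe both an unstranded and a stranded kit. Per the submitters' processing notes, fastp, HISAT2 2.0.5 and featureCounts 1.5.0-p3 were used with the builds Rnor_6.0 and mm10. Neither the annotation release nor the strand setting is given in the sources used here. The authors deposited FPKM per gene. All values were whole reads within 0.02. The recovered reads served for read ratios, their intervals, bounds against the floor, sums over shared entries and some of the other scalings. A count test was not run, since each group is 1 library. FPKM were scaled by the median ratio, compared with a pseudocount of 1, and called at 2-fold. Lists took the gene with more reads where a symbol occurs more than once. Members and lists were chosen with earlier results of these data known. Named genes are the 20 highest and 20 lowest log2 differences at 10 or more scaled FPKM, the largest and the most expressed members of each list, the marker and pair genes, and the highest levels. Some list genes were not analysed here. Read recovery and calls were tested on simulated data. Tools were Python 3.11.15, numpy 2.4.6, pandas 2.3.3 and scipy 1.17.1. Alternatives in scaling, pseudocount, filter and gene class are in the closing section.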

Additional observations from a re-analysis of the deposited data

How the results depend on the processing

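No paired analysis was possible because each group is 1 library, and for the same reason no library could be left out. The counts of genes higher in 3D held within 1.5 times under each of the 3 other scalings (629 to 664 at 2-fold and 120 to 123 at 4-fold), and those of lower genes too (333 to 352 and 32 to 34). Without a filter they did not differ from 674, 327, 124 and 32, which was all but fixed in advance. With a pseudocount of 1, a gene under about 1 FPKM in both libraries cannot be 2-fold apart. A pseudocount of 0.1 gave 571 genes 2-fold lower and 426 higher and 236 lower at 4-fold. Genes at 5 FPKM or more in either library gave 334 higher and 91 lower at 2-fold and 18 lower at 4-fold. Protein-coding genes alone gave 406 higher and 120 lower at 2-fold and 11 lower at 4-fold. Counting only genes whose read ratio interval excludes 1, chosen after seeing the data, left 508 genes 2-fold higher and 169 lower. The share of 2-fold differences that were higher in 3D was 67.3%, with 64.1% to 66.6% under the other scalings, 62.5% with a pseudocount of 0.1, 78.6% at 5 FPKM, 77.2% for protein-coding genes and 75.04% with the interval. Of 57 list medians none moved by over 0.1 under the other scalings, though 12 near 0 took both signs. A scaling shifts all genes by a similar amount, at most from a median of 0.004 to -0.054, so that result was nearly fixed in advance. Without a filter 22 of the 57 list medians moved, at 5 FPKM 16, with a pseudocount of 0.1 9, and for protein-coding genes alone none. Under the other scalings the number of members past 2-fold changed in 7 lists, by at most 2 (chemokines, for instance, had 15 higher under 2 of them). Of 56 named genes, none past 2-fold reversed under the other scalings, the pseudocount, no filter or protein-coding genes alone, nor did any of the 54 that could be followed at 5 FPKM. This too was fixed in advance and supports nothing further. The filter and the gene class leave a gene's own value unchanged, and a pseudocount cannot turn its sign. A scaling shifts it by far less than 2-fold.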

Other observations

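The table's own annotation gives other groupings, which share members with the lists above, so their counts in part repeat results already given. By transcription factor family, 4 of 9 compared Rel homology genes, 3 of 7 interferon regulatory factors and 1 of 4 C/EBP genes were at least 2-fold higher in 3D, against 21 of all 870 factors compared (2.41%). The 4 Rel homology genes were Nfkb1, Nfkb2, Relb and Rel, all described above, as were Irf1 and Irf7. Among factors outside the inflammatory lists, Twist2, a mesenchymal helix-loop-helix factor, had 17.5 scaled FPKM in 3D and 3.99 in 2D, and Rarb, a retinoic acid receptor, had 3.49 in 3D and 0.382 in 2D. The factors at least 2-fold lower were Nr3c2, Tcf21, Atoh8 and Klhl40, the last of them listed as a factor by the table for its BTB domain. By protein domain, 8 of 19 compared death domain genes, 5 of 9 matrixin genes and 6 of 20 C-type lectin genes were higher, against 5.03% of all genes compared, and 1 matrixin gene was lower. Of 14 genes with the MHC class I domain, 4 were higher, against 5.03% of all genes. The separate values of these related genes are uncertain. These groupings were read after the values were seen.

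Genes that share a name or an entry gave opposite values in places. Of the 2 genes named Rpl7a on chromosome 3, with equal length, the one at 5459160 to 5461583 had 924 reads in 3D and 316 in 2D, and the one at 4867233 to 4869656 had 364 in 3D and 1231 in 2D. Their summed reads gave a ratio of 0.967 (0.897 to 1.04). LOC679739, among the 20 highest differences, had 312 reads in 3D and 1 in 2D, while LOC100912599, of the same Swiss-Prot entry and the same length on chromosome 1, had 0 in 3D and 11 in 2D. Atp5pb and LOC100911417, which share an entry, were both higher, at 371 and 342 reads in 3D and 18 and 19 in 2D. No cause of these values was tested.

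Single genes outside every list and chosen after their values were seen include Tlr2, a receptor for bacterial lipoproteins (28.3 scaled FPKM in 3D and 0.94 in 2D), Ass1, an enzyme of arginine synthesis (20.01 in 3D and 0.669 in 2D), Igfbp3, a carrier of insulin-like growth factors (42 in 3D and 5.4 in 2D), and the adenosine receptor Adora2a (6.28 in 3D and 0.238 in 2D).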
